A study of Mus musculus with 24 samples.

Results

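The genes described here are 47 genes of the G1/S transition and of DNA replication, taken by symbol from a named list that covers origin recognition, licensing, the replicative helicase, origin firing, the sliding clamp, the polymerases, nucleotide supply, G1/S control, and chromatin assembly and repair. They are 47 of the 55414 gene identifiers in the files, and all 47 were among the 19616 genes that passed the filter on low counts and were tested. RNA was sequenced from LSK cells, the lineage-negative bone marrow cells positive for Sca-1 and Kit that hold hematopoietic stem cells and multipotent progenitors, collected by FACS from the crushed leg and hip bones of mouse pups on postnatal day 21. The 4 groups, with 6 libraries each, were female and male offspring of obese dams kept on Western diet, and female and male offspring of control dams kept on regular chow. Dams were C57BL/6J mice that ate their diet in the weeks before mating, in pregnancy and while nursing, and the labels give no engineered allele for any pup. Libraries 1 and 2 of every group belong to the labelled batch 1, libraries 3 and 4 to batch 2, and libraries 5 and 6 to batch 3. No label ties a pup to its dam or litter; the spread behind each p-value is that of these libraries, some of which could be of littermates.

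Cells copy their DNA once per division. In G1 the origin recognition complex (the ORC proteins), Cdc6 and Cdt1 load the ring-shaped MCM helicase onto origins, a step called licensing that geminin (Gmnn) blocks after S phase has begun. Cyclin E with its kinase, and the Cdc7-Dbf4 kinase, then start the origins; Cdc45 and the GINS proteins join MCM to form the active helicase, and primase, the polymerases and the PCNA clamp build the new strands. Many of these genes are targets of E2F transcription factors, which the retinoblastoma protein RB holds in check until cyclin-dependent kinases inactivate it. In adult marrow most long-term stem cells are quiescent, whereas multipotent progenitors and young animals' stem cells divide more often.

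Promoter sequence was examined because E2F factors bind words such as those searched. RefSeq promoters of build GRCm38.p6, from 250 bases before to 50 bases after the annotated start, were given for 38 of the 47 genes, as 43 promoters. The E2F words TTTGGCGC, TTTCGCGC, TTTCCCGC and TTTGCCGC were searched on both strands, and matches could overlap. At least a single E2F word lay in 13 of the 43 promoters (30.23%), each of a different gene, against 3.608% of the 15106 promoters of genes tested and 2.265% of all 32851 promoters. Those 13 genes were Cdc6, Cdt1, Gins3, Mcm3, Mcm5, Mcm6, Mcm7, Orc1, Orc3, Pola1, Pold1, Pole2 and Rfc3. The word CCAAT, known as the NF-Y motif, lay in 53.49% of the 43 promoters and in 37.24% of promoters of genes tested. The word TTTGAA, known as the CHR element of many G2/M genes, lay in 13.95% and 12.77%. The word counts are descriptions of these windows and show no binding. The promoters of 4 genes with an E2F word are printed here 5′ to 3′ on the gene's own strand, because these genes, of the genes described with full values, had the smallest p-values for maternal diet in males; capitals mark the E2F words on either strand.
Orc1, chr4:108579204-108579503, plus strand: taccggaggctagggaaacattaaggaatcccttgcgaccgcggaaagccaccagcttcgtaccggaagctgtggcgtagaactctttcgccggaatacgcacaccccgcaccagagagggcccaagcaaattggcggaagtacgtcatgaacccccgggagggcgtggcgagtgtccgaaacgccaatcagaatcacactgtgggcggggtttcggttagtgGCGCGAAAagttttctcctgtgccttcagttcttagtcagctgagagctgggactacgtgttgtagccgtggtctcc
Cdc6, chr11:98907901-98908200, plus strand: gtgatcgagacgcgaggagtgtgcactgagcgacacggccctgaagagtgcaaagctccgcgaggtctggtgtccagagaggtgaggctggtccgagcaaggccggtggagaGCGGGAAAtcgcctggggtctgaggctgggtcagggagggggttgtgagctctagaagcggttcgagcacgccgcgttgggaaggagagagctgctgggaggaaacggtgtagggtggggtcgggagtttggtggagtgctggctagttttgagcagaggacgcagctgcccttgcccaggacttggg
Mcm3, chr1:20820263-20820562, minus strand: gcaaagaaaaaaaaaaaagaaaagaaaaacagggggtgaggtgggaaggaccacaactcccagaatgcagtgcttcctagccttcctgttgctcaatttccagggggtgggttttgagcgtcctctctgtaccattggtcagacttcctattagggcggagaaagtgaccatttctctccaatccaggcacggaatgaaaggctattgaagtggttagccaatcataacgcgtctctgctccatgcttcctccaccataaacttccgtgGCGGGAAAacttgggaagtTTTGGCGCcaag
Mcm6, chr1:128359656-128359955, minus strand: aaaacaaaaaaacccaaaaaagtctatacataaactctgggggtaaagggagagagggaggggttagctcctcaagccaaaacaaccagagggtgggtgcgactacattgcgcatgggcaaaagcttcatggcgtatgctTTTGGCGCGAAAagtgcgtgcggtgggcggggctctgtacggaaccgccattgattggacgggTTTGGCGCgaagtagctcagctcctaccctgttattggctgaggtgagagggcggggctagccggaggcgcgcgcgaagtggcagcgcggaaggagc
In Orc1 the word starts 27 bases before the start site, and in Cdc6 138 bases before it. Mcm3 has its words 19 and 38 bases after the start, and Mcm6 has them 110, 106 and 47 bases before it, the first pair overlapping.

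The libraries held 38057263 to 51581968 counts in genes. Of the markers of the LSK gate, Kit had 267 to 883 CPM (counts scaled to 1000000 per library, with library sizes corrected by TMM) over all libraries. Ly6a, which encodes Sca-1, was low, at 2.14 to 39.9 CPM. The 10 LSK markers together had 1131 to 2870 CPM. These levels do not settle how pure the sorted cells were. Markers of the erythroid lineage moved with maternal diet. All 16 erythroid markers had negative log2 fold changes in both sexes, and none was at 0 in any library. Their summed level was 1414 to 3652 CPM in Western-diet females and 3467 to 10084 CPM in control females, and 2139 to 4145 CPM in Western-diet males and 4930 to 8471 CPM in control males. In edgeR, 11 of the 16 fell in females, 1 in males and 14 in the average of both sexes. Of all genes tested 3.22%, 0.0102% and 3.51% were called lower in these comparisons. The part of the erythroid markers in the results on replication genes was not tested. In females 3 of 10 B-cell markers and 1 of 10 LSK markers (Mecom) rose, where 2.2% of all genes were called higher. No marker of macrophages, neutrophils or T and NK cells passed the test in either sex. Control female libraries 5 and 6 stood apart: their LSK markers lay lowest of all libraries, at a mean centred log2 CPM of -1.05 and -0.82, and their replication genes highest, at 0.40 and 0.27. Without them, 8 erythroid markers fell in females and 14 in the average, where 0.763% and 2.22% of all genes were called. No B-cell or LSK marker was then called in females. For the genes with full values, diet effects that changed call, sign or size by over 1.5 times without these libraries are given so below. Leaving out the controls with the highest replication-gene levels by itself pulls the list's female diet effect towards 0. It also leaves fewer control females. Such fits are therefore no independent check of the effect. Markers also differed between batches, where 24.2% of all genes did. For batch 14 of 16 erythroid, 8 of 10 B-cell, 7 of 10 LSK, 7 of 8 macrophage, 4 of 7 neutrophil and 4 of 8 T and NK markers were called. Macrophage markers had a median log2 fold change of -1.42 in batch 2 and -1.27 in batch 3 over batch 1. In such bulk samples, fewer cells of a type and less RNA per cell cannot be told apart.

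The replication genes were abundant. Levels between genes are compared per length, as TPM, the count over exon length scaled to 1000000 per library, with exons of an older annotation. In the 12 control libraries the median TPM of each of the 47 genes lay above 7.21, the median of all genes tested. Rrm2, the small subunit of ribonucleotide reductase, was highest with a median of 791 TPM, followed by the helicase subunit Mcm6 with 673 TPM and the clamp Pcna with 535 TPM. The lowest were E2f1 with 17.96 TPM, Dbf4 with 11.1 TPM and the chromatin assembly subunit Chaf1a with 10.8 TPM. The length is that of all annotated exons of a gene merged, whether or not these cells use them. It is 3154 bases for E2f1, 8728 for Dbf4 and 8854 for Chaf1a, and the ranks depend on it. The 6 MCM subunits, which work in equal numbers in the ring, ranged in TPM from 320 for Mcm2 to 673 for Mcm6. The place of Mcm2 rests on its merged length of 6956 bases, against 3589 for Mcm4 to 4666 for Mcm6. In counts over all libraries Mcm2 had 749601, Mcm4 448377 and Mcm6 995681. Subunits of the origin recognition complex differed more in level, from 26.6 TPM for Orc1 to 168 TPM for Orc6. Between the control libraries, Ccne1 varied most, with a coefficient of variation of 126%, and Mcm7 least, with 6.32%.

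**Figure D1:**
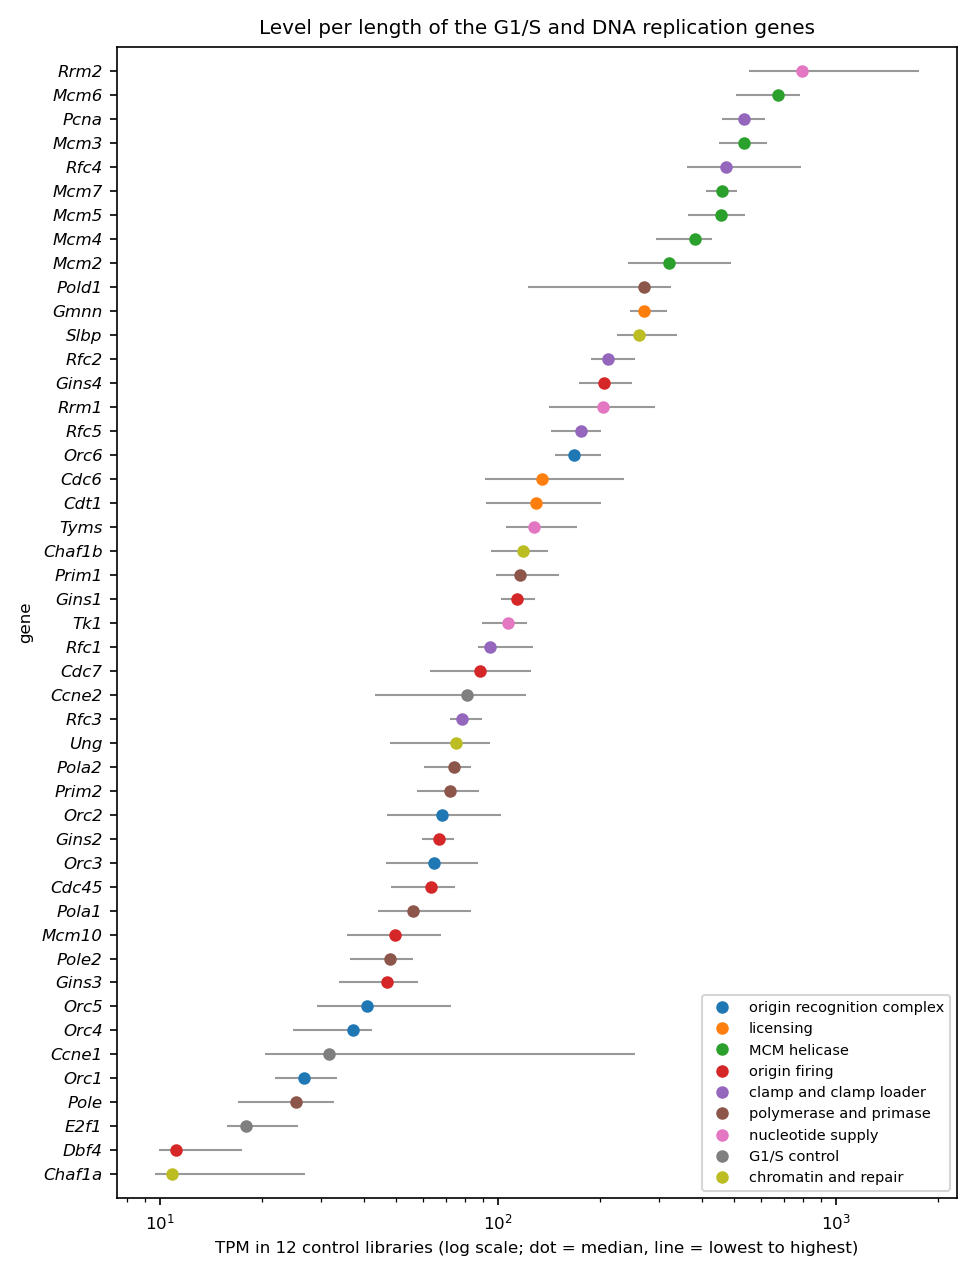
Level per length of the 47 genes in the 12 control libraries, in TPM on a log scale, ordered from highest to lowest; dots are medians, lines run from the lowest to the highest library, and colours mark the genes' roles. Rrm2, Mcm6 and Pcna lie highest and Chaf1a lowest, and Ccne1 has the longest line, from 20.5 to 255 TPM.

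A few of these genes were lower with maternal Western diet and none was called higher. In females, Cdc6, Orc2 and Orc5 fell (3 of 47 genes lower and 0 higher, edgeR's quasi-likelihood test, Benjamini-Hochberg adjusted p under 0.05 over all 19616 genes), where 5.42% of all genes tested were called, 3.22% lower and 2.2% higher. In males 0 of 47 were called by edgeR, where 0.0102% of all genes were; DESeq2 called 1 of the 47 (Orc2), against 0.761% of the genes to which it gave an adjusted p, limma-voom called 2 (Orc1 and Orc2), against 0.673% of all genes, and 14 were lower at an unadjusted p under 0.05, against 8.45% of all genes in either direction. Averaged over the sexes, 8 fell and 0 rose (Orc2, Cdc6, Orc5, Orc1, Chaf1b, Rrm1, Slbp and Pola2), where 5.7% of all genes were called, 3.51% lower and 2.19% higher. At an unadjusted p under 0.05, 13 of the 47 were lower and 0 higher in females, against 21.3% of all genes in either direction, and 22 were lower and 0 higher in the average, against 20.6%. In females DESeq2 called 6 of the 47 lower, where it called 9.7% of genes, and limma-voom 2, where it called 3.72%. In the average they called 9 each, where they called 9.63% and 7.69% of genes.

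Beyond the calls, most values lay on one side of 0. The log2 fold change, Western diet over control, was negative for 35 of 47 genes in females, where 46.4% of all genes were negative, and for 44 of 47 in males, where 46.2% were. It was negative in both sexes for 33 genes, and in the average for 44, where 45.3% of all genes were negative. The median log2 fold change of the 47 genes was -0.12 in females, -0.19 in males and -0.16 in the average, against 0.03, 0.02 and 0.02 for all genes tested. Under the other normalizations, filters, models and tools tried, and with single batches or libraries left out, the median of the list ranged from -0.22 to -0.05 in females, from -0.26 to -0.13 in males and from -0.21 to -0.10 in the average; the value of -0.05 in females came without control female libraries 5 and 6. Genes of the list are expressed together and are no independent observations of the diet. Within batches 1, 2 and 3, the mean CPM was lower in Western-diet than in control females for 43, 25 and 30 of the 47 genes, and lower in Western-diet than in control males for 40, 39 and 41. In all 3 batches alike it was lower for 17 genes in females and for 32 in males. These counts by batch, and the 33 genes negative in both sexes, were not set against all genes. They therefore describe nothing particular to the list. Separation of single libraries was rare: Mcm4 in males was the gene with every Western-diet library below every control library, 1 of 47, where 0.291% of all genes were so separated, and in females 0 of 47 were, where 0.714% of all genes were. Of all genes, 0.469% in females and 0.209% in males had every Western-diet library above every control library, and 0 of the 47 did.

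**Figure D2:**
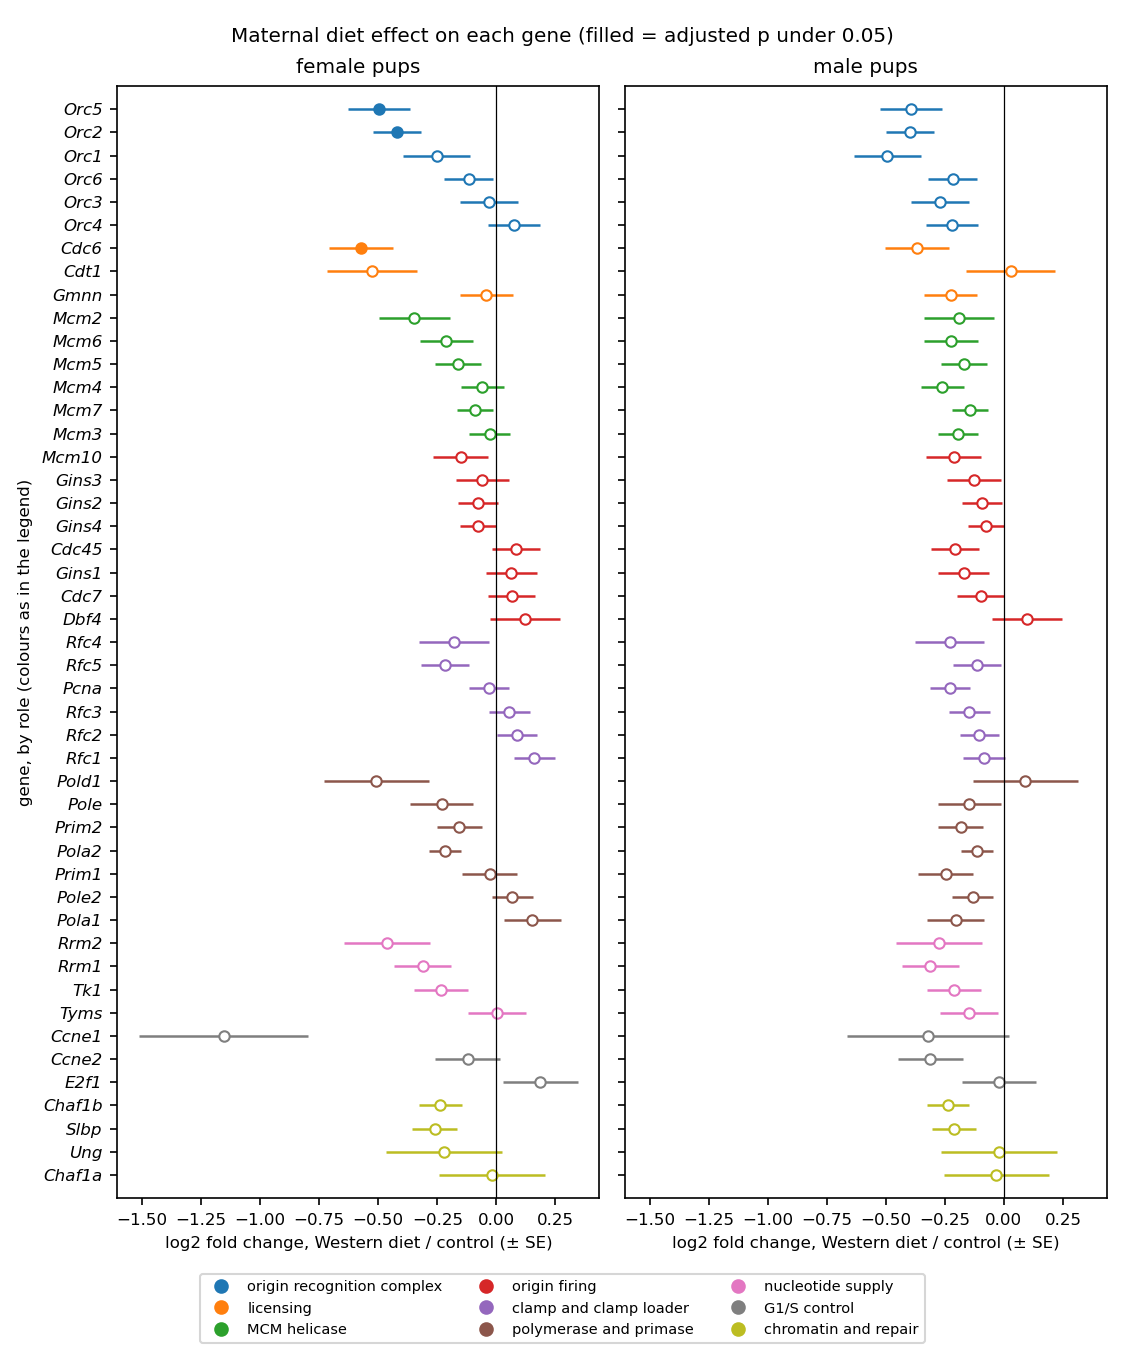
Log2 fold change of each of the 47 genes, Western diet over control, with its standard error, in female pups (left) and male pups (right), grouped by role; filled dots have an adjusted p under 0.05. Orc5, Orc2 and Cdc6 are filled in females, no dot is filled in males, and 44 of 47 dots lie left of the zero line in males.

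The number of calls depended on the libraries used. In females 0 of 47 genes were called without batch 2, 0 without batch 3, 0 without the batch term and 0 without control female libraries 5 and 6, where 0.763% of all genes were, and 5 were called without Western-diet female library 2. For the average, 0 were called without batch 3 or without the batch term, 4 without batch 1, 3 without batch 2, and 3 (Cdc6, Orc2 and Orc5) without control female libraries 5 and 6, where 2.22% of all genes were. Without those libraries 0.00991% of all genes were called in males, and 0 of the 47. Leaving out a single library lowered the count in the average from 8 to 3 for Western-diet male 5, to 4 for control female 1, 5 or 6, and to 5 for Western-diet female 5, control male 6 or Western-diet male 6. Counts given without a share of all genes were not set against the calls over all genes. They therefore describe nothing particular to these genes.

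The origin recognition complex marks the sites where replication can start, and 3 of its 6 subunit genes fell in the average (2 in females). Of all genes tested, 3.51% were called lower in the average and 3.22% in females. Orc2 (ENSMUSG00000026037, chromosome 1) encodes a core subunit. It had 54.7 to 97.5 CPM (median 70.3) in Western-diet females and 64.3 to 132 CPM (median 94.2) in control females, and 55.6 to 78.9 CPM (median 63.0) in Western-diet males and 70.2 to 113 CPM (median 82.6) in control males. The groups overlapped in both sexes, All 6 Western-diet libraries of each sex lay below the mean of their controls. The mean was 1.35-fold lower in Western-diet females (log2 fold change -0.42 ± 0.10 SE, edgeR adjusted p 0.0149) and 1.33-fold lower in Western-diet males (-0.40 ± 0.10, adjusted p 0.21), and the average effect was -0.41 ± 0.07 (adjusted p 0.00095). Within batches 1, 2 and 3 the log2 ratio of the means was -0.24, -0.51 and -0.51 in females and -0.51, -0.17 and -0.52 in males. Of the exons of Orc2, 29.8% overlap those of Nif3l1, and the library kit does not mark strand, so reads in that stretch cannot be told apart. Without control female libraries 5 and 6 the effect on Orc2 in females was -0.36 and no longer called.

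Orc5 (ENSMUSG00000029012, chromosome 5), an ATP-binding subunit, had 48.2 to 93.0 CPM (median 67.7) in Western-diet females and 64.1 to 149.9 CPM (median 86.9) in control females. In Western-diet males it had 54.1 to 72.2 CPM (median 62.5), against 60.6 to 117 CPM (median 80.8) in control males. The highest values belonged to control libraries of batch 3 in both sexes, and the groups overlapped. Orc5 fell in females by 0.50 ± 0.13 on the log2 scale (adjusted p 0.0265) and in the average by 0.44 ± 0.09 (adjusted p 0.00459), with all 6 Western-diet libraries of each sex below the control mean. In males its log2 fold change was -0.39 ± 0.13 (adjusted p 0.368). The female call was lost without control female library 3, 5 or 6 or Western-diet female library 4 or 5, with log2 fold changes of -0.48, -0.42, -0.46, -0.45 and -0.46 in that order, and without control female libraries 5 and 6 together (-0.33).

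Orc1 (ENSMUSG00000028587, chromosome 4), the subunit that human cells degrade as S phase proceeds, had 15.2 to 37.8 CPM (median 24.5) in Western-diet females and 24.4 to 39.6 CPM (median 28.8) in control females. It had 18.2 to 27.1 CPM (median 23.6) in Western-diet males and 26.6 to 39.8 CPM (median 30.6) in control males, where 5 of 6 Western-diet libraries lay below every control. Its average effect was -0.37 ± 0.10 (adjusted p 0.027), from -0.25 ± 0.14 in females (adjusted p 0.313) and -0.49 ± 0.14 in males (adjusted p 0.278). The average call was lost without control female library 6 (-0.35) or Western-diet male library 5 (-0.37). It was also lost without control female libraries 5 and 6 together (-0.35). Orc3, Orc4 and Orc6 were not called in any comparison by diet, with log2 fold changes between -0.12 and 0.07 in females and between -0.27 and -0.22 in males.

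The licensing factors differed among themselves. Cdc6 (ENSMUSG00000017499, chromosome 11), the ATPase that brings MCM to the origin recognition complex, had 148 to 285 CPM (median 158) in Western-diet females and 169.9 to 415 CPM (median 239) in control females. It had 144 to 219.8 CPM (median 184) in Western-diet males and 174 to 342 CPM (median 231) in control males. Of the Western-diet female libraries, 4 lay below every control, and library 6, at 285 CPM, was far above the rest. Cdc6 was 1.51-fold lower in Western-diet females (log2 fold change -0.57 ± 0.14, adjusted p 0.0136, 5 of 6 libraries below the control mean), and its average effect was -0.47 ± 0.10 (adjusted p 0.00366). In males the log2 fold change was -0.37 ± 0.14 (adjusted p 0.439), with 6 of 6 libraries below the control mean. The log2 ratio of the means within batches 1, 2 and 3 was -0.44, -0.53 and -0.72 in females and -0.40, -0.05 and -0.70 in males. Without control female libraries 5 and 6 the effect on Cdc6 in females was -0.42, and it was not called.

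Cdt1, which delivers MCM to origins, had 50.8 to 144 CPM (median 129) in Western-diet females and 123 to 216 CPM (median 161) in control females, with the lowest value in library 6 and all 6 Western-diet libraries below the control mean. In males the values were 117 to 146 CPM (median 131) with Western diet and 102 to 180.4 CPM (median 121) in controls, so the control range enclosed the other. The log2 fold change of Cdt1 was -0.53 ± 0.19 in females (adjusted p 0.105) and 0.03 ± 0.19 in males (adjusted p 0.977). In females it was -0.34 without control female libraries 5 and 6, and with no filter it was called (-0.55). Without those libraries the value in males was 0.016, and the average of -0.25 became -0.16. The value in males turned negative without control male library 1 (-0.0031) or 5 (-0.06) or without Western-diet male library 2 (-0.0043) or 6 (-0.0052). Gmnn, the inhibitor of Cdt1, had 92.4 to 183 CPM (median 127) in Western-diet females, against 116 to 158 CPM (median 134) in control females. In males it had 95.7 to 129.7 CPM (median 115) with Western diet and 109.6 to 153 CPM (median 133) in controls. For Gmnn the log2 fold change was -0.04 ± 0.11 in females (0.014 without Western-diet female library 1) and -0.23 ± 0.11 in males, with adjusted p of 0.883 and 0.605.

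The MCM helicase unwinds DNA ahead of the polymerases as a ring of Mcm2 to Mcm7, and none of its 6 genes was called by DESeq2, by limma-voom or by edgeR with the filter on low counts. With no filter edgeR called Mcm2 in females (-0.37) and in the average (-0.29). All 6 log2 fold changes were negative in each sex. They ranged from -0.35 to -0.03 in females (median -0.13) and from -0.26 to -0.14 in males (median -0.19). At an unadjusted p under 0.05, 1 was lower in females, 2 in males and 5 in the average. Of all 19616 genes tested, 1871, 1036 and 1862 were lower at that threshold. Mcm4 separated the male groups, with 367 to 418 CPM (median 388) in Western-diet males and 429 to 561 CPM (median 448) in control males, a log2 fold change of -0.26 ± 0.09 with an adjusted p of 0.406. In females Mcm4 had 348 to 499 CPM (median 414) with Western diet and 360.4 to 516 CPM (median 429.8) in controls, and its log2 fold change of -0.06 ± 0.09 became 0.02 without control female libraries 5 and 6. Mcm2 had 427 to 740.4 CPM (median 627) in Western-diet females and 599.6 to 1141 CPM (median 764) in control females, with 6 of 6 Western-diet libraries below the control mean and a log2 fold change of -0.35 ± 0.15 (adjusted p 0.179), which was -0.21 without control female libraries 5 and 6. Mcm2 in males had 506 to 756 CPM (median 664) with Western diet and 630.1 to 1073 CPM (median 714) in controls, for a value of -0.19 ± 0.15.

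Mcm3 had 530.2 to 755 CPM (median 594) in Western-diet females, 542 to 695 CPM (median 632) in control females, 562 to 677 CPM (median 632) in Western-diet males and 658 to 857 CPM (median 703) in control males. Mcm5 had 456 to 684 CPM (median 509), 519.6 to 723 CPM (median 579.5), 499.5 to 596 CPM (median 542) and 563 to 705 CPM (median 605) in the same groups. Mcm6 had 610.2 to 947 CPM (median 907), 837 to 1113 CPM (median 1048), 786 to 997 CPM (median 877) and 933 to 1211 CPM (median 978), and Mcm7 had 516 to 729 CPM (median 607), 585 to 698 CPM (median 675), 539 to 714 CPM (median 635) and 631 to 749.6 CPM (median 705). For each of these 4 genes the groups overlapped in both sexes, and 4 of 6 Western-diet male libraries lay below all controls for Mcm3, Mcm5 and Mcm6. The log2 fold changes of Mcm3, Mcm5, Mcm6 and Mcm7 were -0.03 ± 0.09, -0.16 ± 0.10, -0.21 ± 0.11 and -0.09 ± 0.08 in females and -0.19 ± 0.09, -0.17 ± 0.10, -0.22 ± 0.11 and -0.14 ± 0.08 in males. The female value of Mcm5 was -0.09 without control female libraries 5 and 6. Of the exons of Mcm7, 12.6% overlap neighbouring genes, among them those of Ap4m1 and Cops6.

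The genes that fire licensed origins had, of all roles, the median closest to 0 in females. Among the 8 of them, 4 had negative log2 fold changes in females (median 0.0024, range -0.15 to 0.12) and 7 in males (median -0.11, range -0.21 to 0.10), and 0 were called in either sex or the average, with 0, 0 and 1 lower at an unadjusted p under 0.05. Of all 19616 genes tested, 1871, 1036 and 1862 were lower at that threshold. Dbf4, the regulatory subunit of the Cdc7 kinase and the second lowest of the 47 genes per length, had 30.9 to 55.1 CPM (median 38.9) in Western-diet females and 30.1 to 51.2 CPM (median 34.6) in control females. It had 23.3 to 40.6 CPM (median 37.8) in Western-diet males and 28.7 to 40.8 CPM (median 31.7) in control males. Its log2 fold changes were 0.12 ± 0.15 and 0.10 ± 0.15 in females and males, so it was the gene of the 47 with the highest value in males. The female value was 0.26 without control female libraries 5 and 6, and the average of 0.11 became 0.18. The GINS subunit Gins4 had 75.4 to 114 CPM (median 92.1) in Western-diet females and 89.9 to 115 CPM (median 96.9) in control females, and 73.1 to 93.9 CPM (median 81.8) in Western-diet males and 74.2 to 112 CPM (median 83.3) in control males. Its log2 fold change was -0.08 ± 0.08 in both sexes, and -0.13 in females without control female libraries 5 and 6. Cdc45, Mcm10, Cdc7, Gins1, Gins2 and Gins3 lay between -0.15 and 0.08 in females and between -0.21 and -0.09 in males, and 67.3% of the exons of Gins2 overlap those of Gse1.

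The clamp and its loader tether the polymerases to DNA. Pcna, the clamp, had 336 to 493 CPM (median 375) in Western-diet females and 359 to 439 CPM (median 421) in control females, and 332 to 438 CPM (median 372) in Western-diet males and 392 to 541 CPM (median 431) in control males. Its groups overlapped in both sexes, and 4 of 6 Western-diet male libraries lay below all controls. The log2 fold change was -0.03 ± 0.08 in females (adjusted p 0.878) and -0.23 ± 0.08 in males (adjusted p 0.441). The 5 loader genes Rfc1 to Rfc5 were not called: in females they ranged from -0.22 for Rfc5 to 0.16 for Rfc1, and in males from -0.23 for Rfc4 to -0.08 for Rfc1.

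Of the 7 polymerase and primase genes, Pola2 was called in the average, where 3.51% of all genes were called lower. Pola2 (ENSMUSG00000024833, chromosome 19), the regulatory subunit of the polymerase that lays down primers, had 163 to 211 CPM (median 173) in Western-diet females and 183 to 225 CPM (median 203) in control females, where 5 of 6 Western-diet libraries lay below every control and library 6 did not. It had 167 to 189 CPM (median 185) in Western-diet males and 181 to 228 CPM (median 192) in control males. Its average log2 fold change was -0.17 ± 0.05 (adjusted p 0.0449), from -0.22 ± 0.07 in females (adjusted p 0.0646) and -0.11 ± 0.07 in males (adjusted p 0.675). The ratio of means was below 1 in all 3 batches of each sex, and in females a call appeared with DESeq2 (-0.23), with the filter of 1 CPM in 6 libraries (-0.22), and without Western-diet female library 2 (-0.26) or 6 (-0.25). Single libraries that ended the average call were control females 1, 3, 5 and 6, Western-diet females 3, 4 and 5, control males 3, 5 and 6, and Western-diet males 1, 5 and 6, with values from -0.18 to -0.15. Leaving out control female libraries 5 and 6 together ended it too (-0.17). Pold1, the catalytic subunit of polymerase delta, had 96.7 to 373 CPM (median 361) in Western-diet females and 370.3 to 531 CPM (median 429) in control females, where the value of 96.7 CPM came from library 5. Its log2 fold change was -0.51 ± 0.22 in females and 0.09 ± 0.22 in males, and neither was called by edgeR with the filter on low counts. With no filter the difference between these effects was called. The 5 other genes lay between -0.23 and 0.15 in females and between -0.25 and -0.13 in males.

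**Figure D3:**
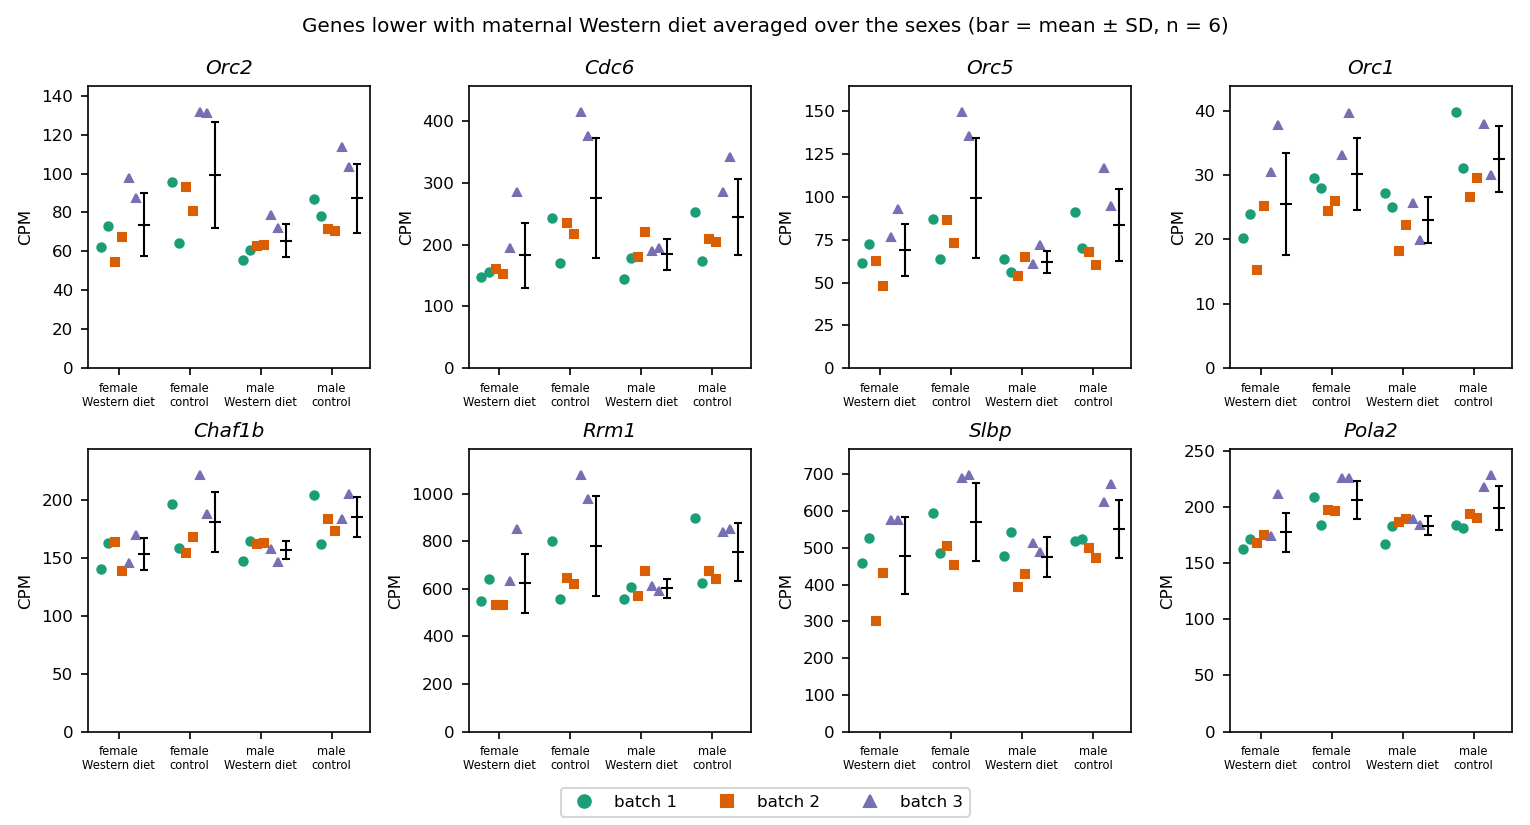
CPM of the 8 genes that were lower with maternal Western diet in the average of both sexes, by library, group and batch, with the mean and SD of each group (n = 6). The Western-diet means lie below the control means in both sexes, and in both control groups the libraries of batch 3 are the highest for Orc2, Cdc6 and Orc5.

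Among the 4 nucleotide supply genes, Rrm1 fell in the average, where 3.51% of all genes were called lower. Rrm1 (ENSMUSG00000030978, chromosome 7), the large subunit of ribonucleotide reductase, which makes deoxynucleotides, had 529.9 to 853 CPM (median 592) in Western-diet females and 556 to 1078 CPM (median 725) in control females. It had 556 to 674 CPM (median 598) in Western-diet males and 626 to 897 CPM (median 756) in control males, where 5 of 6 Western-diet libraries lay below all controls. Its log2 fold change was -0.31 ± 0.12 in each sex (adjusted p 0.134 in females and 0.474 in males), and the average effect of -0.31 ± 0.09 was called (adjusted p 0.031). Leaving out control female libraries 5 and 6 gave -0.17 in females, and -0.25 and no call in the average. The call was lost without control female library 1, 5 or 6, Western-diet female library 5, control male library 1 or Western-diet male library 5 or 6, with values from -0.31 to -0.27. Rrm2, the small subunit, had 523 to 751 CPM (median 635) in Western-diet females and 544 to 1635 CPM (median 836) in control females, and 472 to 721 CPM (median 649) in Western-diet males and 577 to 1429.8 CPM (median 624) in control males. Its highest values were control libraries of batch 3, and its log2 fold changes of -0.46 ± 0.18 in females and -0.27 ± 0.18 in males were not called (adjusted p 0.143 and 0.709). Its female value was -0.27 without control female libraries 5 and 6. The average effect of Rrm2, -0.37 ± 0.13, was called without control female library 2 (-0.43) or 4 (-0.44), and with no filter Rrm2 was called in females (-0.48) and in the average (-0.38). For the thymidine enzymes Tk1 and Tyms the log2 fold changes were -0.23 ± 0.11 and 0.0025 ± 0.12 in females and -0.21 ± 0.11 and -0.15 ± 0.12 in males.

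The 3 G1/S control genes, for the E cyclins and E2f1, were not called by diet in the edgeR fit described above, but Ccne1 was called under other settings. Ccne1, which encodes cyclin E1, had 18.4 to 29.01 CPM (median 23.6) in Western-diet females and 24.8 to 228 CPM (median 27.9) in control females. Control female library 5 had 228 CPM and library 6 had 65.8 CPM, while the other 4 reached at most 28.3 CPM. Males had 15.8 to 23.95 CPM (median 20.4) with Western diet and 19.98 to 34.3 CPM (median 24.9) in controls. The log2 fold change of Ccne1 was -1.15 ± 0.36 in females (adjusted p 0.0599) and -0.32 ± 0.34 in males (adjusted p 0.819), and without control female libraries 5 and 6 it was -0.26 in females. In the average it was -0.74 ± 0.25, and -0.32 without those libraries. It was called in females and in the average by DESeq2 (-1.18 and -0.76), with no filter (-1.18 and -0.76), and without control female library 2 (-1.33 and -0.84) or 4 (-1.35 and -0.84), and in females with the filter of 1 CPM in 6 libraries (-1.16). Ccne2, for cyclin E2, had 62.3 to 113 CPM (median 90.7) in Western-diet females and 53.9 to 142 CPM (median 88.9) in control females, and 54.3 to 98.1 CPM (median 75.3) in Western-diet males and 65.2 to 114 CPM (median 96.0) in control males. Its log2 fold change was -0.12 ± 0.14 in females, where it became 0.06 without control female libraries 5 and 6, and -0.31 ± 0.14 in males. The average of -0.22 ± 0.10 became -0.13 without them. E2f1, the activator of many of these genes, had 15.9 to 30.7 CPM (median 20.1) in Western-diet females and 16.8 to 27.1 CPM (median 18.9) in control females, and 16.1 to 25.3 CPM (median 20.3) in Western-diet males and 16.6 to 26.6 CPM (median 20.8) in control males. Its log2 fold changes of 0.19 ± 0.16 in females and -0.02 ± 0.16 in males lay close to their standard errors or within them. The male value turned positive without control male library 2 (0.014) or Western-diet male library 3 (0.0016) or 4 (0.03), and the average of 0.08 ± 0.11 became -0.0015 without Western-diet female library 4 and 0.05 without control female libraries 5 and 6.

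**Figure D4:**
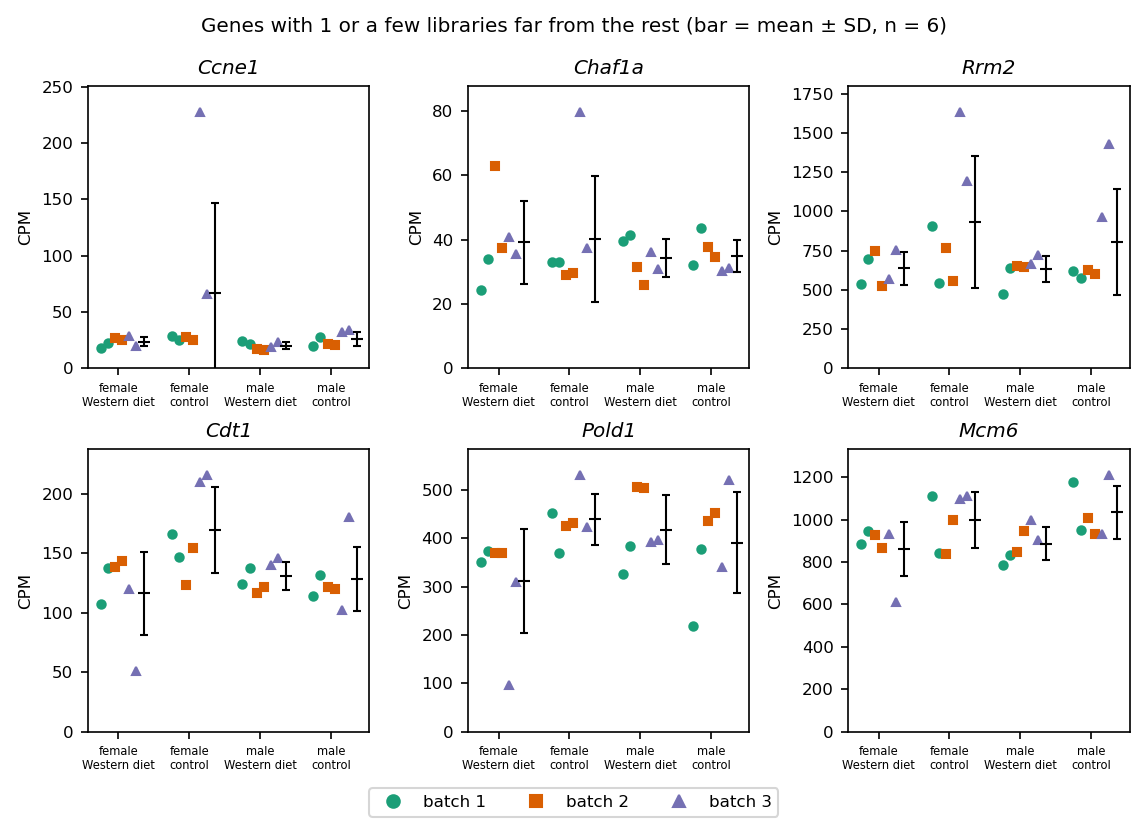
CPM by library, group and batch of 6 genes with a few libraries far from the rest, with the mean and SD of each group (n = 6). Control female library 5 (batch 3) has 228 CPM of Ccne1 and 79.9 CPM of Chaf1a, and Western-diet female library 6 (batch 3) has 50.8 CPM of Cdt1 and 610.2 CPM of Mcm6.

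Of the 4 chromatin and repair genes, 2 fell in the average, where 3.51% of all genes were called lower. Chaf1b (ENSMUSG00000022945, chromosome 16), a subunit of the CAF-1 complex that deposits histones behind the fork, had 139 to 169.9 CPM (median 154) in Western-diet females and 154 to 221 CPM (median 178) in control females, and 146 to 164 CPM (median 159.9) in Western-diet males and 162 to 205 CPM (median 183) in control males. All 6 Western-diet libraries of each sex lay below the control mean, and 3 of 6 lay below every control in each sex. The log2 fold change was -0.24 ± 0.09 in both sexes (adjusted p 0.125 in females and 0.464 in males) and -0.24 ± 0.06 in the average (adjusted p 0.028). That call was lost without control female library 1 or 5, Western-diet female library 5, control male library 6 or Western-diet male library 5, with values from -0.23 to -0.21. It was also lost without control female libraries 5 and 6 together (-0.20). Slbp (ENSMUSG00000004642, chromosome 5), which binds the stem-loop of histone mRNAs, had 302 to 575 CPM (median 493) in Western-diet females and 453 to 698 CPM (median 549) in control females, and 394 to 543 CPM (median 483) in Western-diet males and 473 to 675 CPM (median 521) in control males. Its average effect was -0.24 ± 0.07 (adjusted p 0.0353), from -0.26 ± 0.09 in females (adjusted p 0.103) and -0.21 ± 0.09 in males (adjusted p 0.543), with 4 of 6 and 6 of 6 Western-diet libraries below the control mean. The average call of Slbp was lost without control female library 1, 3, 5 or 6, control male library 3 or 6, or Western-diet male library 5 or 6 (values from -0.24 to -0.22). It was also lost without control female libraries 5 and 6 together (-0.22). A call in females appeared with DESeq2 (-0.28) and without Western-diet female library 2 (-0.33).

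Chaf1a, the partner of Chaf1b, had 24.4 to 63.0 CPM (median 36.5) in Western-diet females and 29.001 to 79.9 CPM (median 33.1) in control females, and 26.1 to 41.6 CPM (median 33.9) in Western-diet males and 30.3 to 43.6 CPM (median 33.4) in control males. Its log2 fold change was -0.02 ± 0.22 in females and -0.03 ± 0.22 in males. The sign in females turned without control female libraries 5 and 6 together (0.36), without library 5 alone (0.28) or Western-diet female library 1 (0.05) or 6 (0.04), and in males without control male library 2 (0.05) or Western-diet male library 4 (0.03) or 6 (0.0080). The average of -0.03 ± 0.16 turned positive without control female 5 (0.13) or without control females 5 and 6 (0.17), Western-diet female 1 (0.0045) or 6 (0.0013), or control male 2 (0.0092). Of the exons of Chaf1a, 52.5% overlap those of Ubxn6. Ung, which removes uracil from DNA, had log2 fold changes of -0.22 ± 0.25 in females and -0.02 ± 0.24 in males, and its 28.1 CPM in Western-diet female library 6 compare with a median of 127 CPM in that group.

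With the filter on low counts, the diet effects were not shown to differ between the sexes. For the difference of the effects, female minus male, edgeR called 0 of 47 genes, where 0% of all genes were called, and DESeq2 and limma-voom called 0 as well. With no filter edgeR called Ccne1 and Pold1, which was not set against the calls over all genes. At an unadjusted p under 0.05, 1 gene was higher (Pola1, 0.36 ± 0.17) and 1 lower (Cdt1, -0.55 ± 0.27), against 8.32% of all genes. The differences of the 47 genes were below 0 for 15, where 47.6% of all genes were, had a median of 0.05 and ranged from -0.83 to 0.36. All 8 genes of origin firing had differences above 0, up to 0.29 for Cdc45, with none called.

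The sexes were also compared within each maternal diet. Between Western-diet females and Western-diet males 0 of 47 genes were called, where 0.0816% of all genes were (0.0255% higher and 0.0561% lower in females), with 1 higher in females (Gins4, 0.17 ± 0.08) and 0 lower at an unadjusted p under 0.05, against 6.75% of all genes; 15 of 47 values were below 0, where 49.8% of all genes were. Between control females and control males 0 were called, where 0.112% of all genes were (0.0255% higher and 0.0867% lower in females), with 3 higher and 5 lower in females at an unadjusted p under 0.05, against 13.2%; 25 of 47 values were below 0, where 54% of all genes were. Those higher were Ccne1 (1.06 ± 0.35, adjusted p 0.206), Cdt1 (0.40 ± 0.19) and Gins4 (0.17 ± 0.08), and those lower were Pola1 (-0.33 ± 0.12), Rfc1 (-0.22 ± 0.09), Mcm3 (-0.20 ± 0.09), Rfc3 (-0.20 ± 0.09) and Rfc2 (-0.18 ± 0.08). The values of Ccne1, Cdt1 and Rfc2 were 0.14, 0.19 and -0.11 without control female libraries 5 and 6. DESeq2 and limma-voom called 0 of 47 in both sex comparisons.

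More of these genes were called for batch than for diet. The levels of 21 of 47 genes differed between the 3 batches in the same fit, where 24.2% of all genes did. Orc2 (adjusted p 0.000172), Slbp (adjusted p 0.000761) and Gins4 (adjusted p 0.000897) had the smallest p-values. Orc2 was 0.48 higher in batch 3 than in batch 1 on the log2 scale, Slbp 0.22 and Gins4 0.30, and batch 2 lay at -0.03, -0.25 and -0.04 of batch 1. Of all 47 genes, 40 were higher in batch 3 than in batch 1, with a median log2 fold change of 0.15, against -0.03 for all genes tested. The 4 called subunits of the origin recognition complex (Orc1, Orc2, Orc5 and Orc6), Cdc6 (0.61), Rrm2 (0.62) and Ccne2 (0.57) were among those called, and none of the 6 MCM genes was. Without control female libraries 5 and 6, which belong to batch 3, 9 genes were called for batch, and without control female library 6 alone 13. These counts were not set against the calls over all genes. Within batches 1, 2 and 3 the median log2 ratio of the 47 genes, Western diet over control, was -0.17, -0.02 and -0.13 in females and -0.18, -0.10 and -0.26 in males, so it was negative in every batch. Fitted within batches 1, 2 and 3 alone, each with 2 libraries per group, 0, 0 and 4 of the 47 genes were called in females, where 0%, 0.109% and 14% of all genes were. In the average 0, 0 and 7 were called, where 0%, 0.00497% and 9.15% of all genes were, and in males 0 in each batch, where 0% were. The control females of batch 3 are libraries 5 and 6, so no fit within batch 3 leaves them out.

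Related gene lists give the setting of these values. The list of other S phase genes (54 tested) had 1 gene lower and 0 higher in females, 0 called in males and 4 lower and 0 higher in the average. Of all genes tested 3.22%, 0.0102% and 3.51% were called lower in these comparisons. Its median log2 fold changes were -0.06, -0.14 and -0.10. Recql4, a helicase-like factor needed to start replication, had 12.8 to 22.4 CPM (median 17.9) in Western-diet females and 20.97 to 41.1 CPM (median 28.99) in control females, and fell by 0.78 ± 0.17 on the log2 scale (adjusted p 0.00793), with 6 of 6 Western-diet libraries below the control mean. In males it was at -0.09 (adjusted p 0.907). Without control female libraries 5 and 6 its female value was -0.62 and not called. In that fit 0 genes of the list were called in females or the average, where 0.763% and 2.22% of all genes were. The other genes lower in the average were Blm, a helicase of DNA repair (-0.34 ± 0.08), Pold2, a subunit of polymerase delta (-0.24 ± 0.07), and Dck, which phosphorylates deoxynucleosides (-0.22 ± 0.06). At an unadjusted p under 0.05, males had 11 of the 54 lower and 0 higher, against 1036 lower and 621 higher of all 19616 genes.

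In the RB and E2F network (27 tested), 3 genes fell and 0 rose in females, 0 were called in males, and 4 fell and 0 rose in the average, with medians of 0.02, -0.07 and -0.02. Of all genes tested 3.22%, 0.0102% and 3.51% were called lower. E2f2, an activating E2F, had 22.1 to 53.7 CPM (median 39.6) in Western-diet females and 46.6 to 92.2 CPM (median 69.6) in control females, and 39.7 to 68.8 CPM (median 48.8) in Western-diet males and 43.4 to 88.0 CPM (median 66.1) in control males. It fell in females by 0.78 ± 0.20 (adjusted p 0.021) and in the average by 0.59 ± 0.14 (adjusted p 0.0115), with 6 of 6 Western-diet female and 5 of 6 Western-diet male libraries below the control mean. E2f8, a repressing E2F, fell in females by 0.54 ± 0.15 (adjusted p 0.0337), and Tfdp2, a dimer partner of E2F proteins, fell in females by 0.46 ± 0.13 (adjusted p 0.0406), each with 6 of 6 Western-diet libraries below the control mean. Within batches 1, 2 and 3 the log2 ratio of the means of E2f2 was -0.51, -0.25 and -1.53 in females. In the average both fell by 0.38, as did Rb1 (adjusted p 0.0147), which encodes the RB protein that restrains E2F. Without control female libraries 5 and 6, 0 genes of the network were called in females or the average, where 0.763% and 2.22% of all genes were. The female values of E2f2, E2f8 and Tfdp2 were then -0.50, -0.39 and -0.21. At an unadjusted p under 0.05, 4 genes of this network were lower and 1 higher in males, against 1036 and 621 of all 19616 genes.

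The G2/M list (28 tested), which holds genes of mitosis such as Mki67, Ccnb1 and Cdc20, had 0 genes called by edgeR in females, in males and in the average. Of all genes tested 5.42%, 0.0102% and 5.7% were called. At an unadjusted p under 0.05, 7, 0 and 4 of the G2/M genes were lower and 0 higher in each, where 1871, 1036 and 1862 of all 19616 genes were lower. The median log2 fold changes of the G2/M list were -0.09, -0.05 and -0.08, against -0.12, -0.19 and -0.16 for the 47 replication genes. The difference between the lists was not tested. The replication genes' mean centred log2 CPM lay between -0.27 and 0.07 in Western-diet females and between -0.11 and 0.40 in control females, and between -0.17 and -0.04 in Western-diet males and between -0.04 and 0.23 in control males. In males the highest Western-diet library lay at -0.0360 and the lowest control library at -0.0354, so the groups did not overlap, by a narrow margin. In females libraries of the 2 diets lay among each other. The replication genes' summed level was 9516 to 11901 CPM in Western-diet females and 10247 to 15022 CPM in control females, and 9781 to 11023 CPM in Western-diet males and 10897 to 14140 CPM in control males. By this sum the groups overlapped in both sexes.

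**Figure D5:**
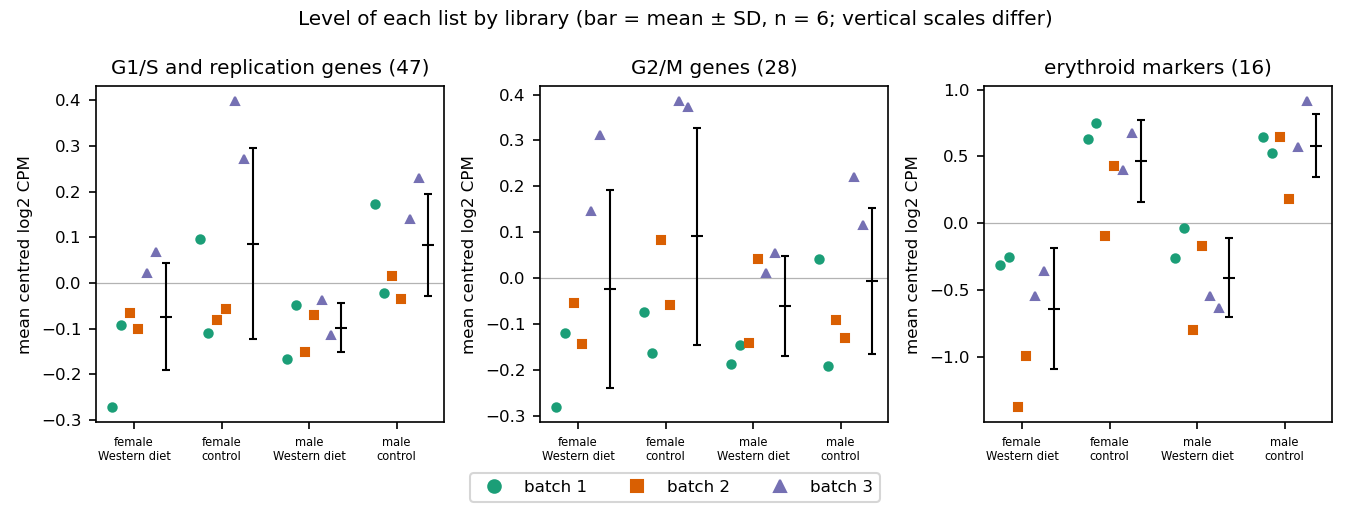
Mean over the genes of a list of log2 CPM centred per gene, by library, group and batch, for the 47 replication genes, the 28 G2/M genes and the 16 erythroid markers, with the mean and SD of each group (n = 6) and a different vertical scale in each panel. Control female libraries 5 and 6 are the highest for replication genes, at 0.40 and 0.27, and the erythroid markers lie lower in the Western-diet groups of both sexes.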

How the data were processed

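RNA of LSK cells was sequenced from 24 libraries, 6 per group, from polyA RNA with the NEBNext Ultra Low Input kit, per the labels; kits of this kind do not mark strand. The authors deposited raw counts per gene, made with FastQC, cutadapt, STAR and HTSeq on mouse build GRCm39, per the submitters' processing notes, which also name DESeq2. Their versions, the annotation release and the counting mode are not stated in the labels or files. Lines without a gene, 31.0 to 39.3% of a library, were left out.

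The 19616 genes passing filterByExpr were tested with edgeR 4.0.16 (R 4.3.3), using TMM scaling and a robust quasi-likelihood fit of all 24 libraries on group and batch. P-values were two-sided and adjusted by Benjamini-Hochberg over all genes within a comparison, called under 0.05. Standard errors are the log2 fold change divided by the root of F. Alternatives included DESeq2 1.42.0 and limma-voom (limma 3.58.1). CPM are counts per 1000000 of TMM-corrected library size. TPM were computed from the counts and exon lengths of GENCODE M21 (GRCm38), an older build used for names, chromosomes, lengths and overlaps, so TPM are approximate. For a list level, log2(CPM + 0.05) was centred for each gene and averaged over the list.

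The genes, lists and tests were chosen with earlier results of these data known. Full values are given for genes called by diet, the 6 with the smallest p in each sex, the 6 MCM genes, Pcna, Ccne1, Ccne2, E2f1, Cdt1, Gmnn and Cdc6, the 3 with the smallest p for batch, and the 3 highest and 3 lowest per length; Pold1, Ung, Tk1 and Tyms were added after their values were seen. Of the symbols in the other lists, Chtf8, Lin54 and Ly6g were not tested. The fit was tested on simulated counts without batch effects, outlying libraries or litters, so that test says nothing about these.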

Additional observations from a re-analysis of the deposited data

Results flagged for a closer look

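Among 100 groups of 6 values examined, 12 had a library far from the other 5. The cut-off gives about 1 in 20 for independent, normally distributed values. Here each group mixes 3 batches and the genes are expressed together, so the 12 cannot be read against that rate. Western-diet female library 6 accounts for 4 of the 12: it was high for Cdc6 (285 CPM, others 148 to 195), Rrm1 (853 CPM, others 529.9 to 641) and Pola2 (211 CPM, others 163 to 175), and low for Mcm6 (610.2 CPM, others 865 to 947). Control female library 5 was high for Ccne1 (228 CPM, others 24.8 to 65.8) and Chaf1a (79.9 CPM, others 29.001 to 37.5), and control female library 2 for E2f1 (27.1 CPM, others 16.8 to 19.3). Western-diet male library 1 was low for Pola2 (167 CPM, others 183 to 189) and Rrm2 (472 CPM, others 637 to 721). Control male libraries were high for Mcm2 (library 6, 1073 CPM, others 630.1 to 771), Mcm3 (library 1, 857 CPM, others 658 to 715) and Dbf4 (library 2, 40.8 CPM, others 28.7 to 32.01). The cause of these values was not tested.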

How the results depend on the processing

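Of the 47 replication genes, 3 were called in females, and the count was 8 with no filter, 5 with a filter of 1 CPM in 6 libraries, 6 with DESeq2, 1 with only the 2 groups compared, and 0 with no batch term, without batch 2, without batch 3 or without both female control libraries of batch 3. In males the 0 became 1 with DESeq2 and 2 with limma-voom. In the average the 8 became 4 without batch 1, 3 without batch 2, 3 without both female control libraries of batch 3, and 0 with no batch term or without batch 3. Fits within batch 1, batch 2 or batch 3 alone, and the other lists without both female control libraries of batch 3, were chosen after seeing the data. The fits within batch 1 and within batch 2 called 0 in females and 0 in the average. The calls within batch 3 are given above. With no filter the difference of diet effects gave 2 calls (Ccne1 and Pold1) and sex in controls 1 (Ccne1). For batch, 21 became 9 without both female control libraries of batch 3. Leaving out single libraries gave 2 to 5 calls in females, 0 to 0 in males, 3 to 10 in the average, 13 to 22 for batch, and 0 to 0 elsewhere. Replicate numbers do not pair the samples (correlations of same-numbered deviations within batch -0.07 to 0.18); with the number as a replicate block the counts were 3 in females and 4 in the average. Values near 0 changed sign: Mcm4 in females to 0.021 and Ccne2 in females to 0.061 without both female control libraries of batch 3, Ccne2 in females to 0.015 without batch 3, E2f1 in males to 0.073 without batch 2 and in the average to -0.015 without batch 3 and -0.0095 with limma-voom, Cdt1 in males to -0.011 without batch 1, Gmnn in females to 0.059 without batch 1, and Dbf4 in females to -0.069 without batch 2 and in males to -0.032 without batch 3. Chaf1a became 0.35 in females without batch 3, 0.36 without both female control libraries of batch 3, 0.087 in males without batch 2, and 0.13 and 0.17 in the average without batch 3 and without those 2 libraries. On leaving out single libraries, values that changed sign ranged from -0.056 to 0.15 for Cdt1 in males, -0.075 to 0.027 for E2f1 in males and -0.0015 to 0.12 in the average, -0.12 to 0.014 for Gmnn in females, and -0.24 to 0.28, -0.13 to 0.051 and -0.15 to 0.13 for Chaf1a in females, males and the average. The causes were not tested. RLE size factors gave the same diet counts. The counts of genes called in this section were not set against the calls over all genes in each fit. Every one of the 47 genes had at least 22096 counts over all libraries.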
